A study of Sus scrofa with 5 samples.

Results

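Voltage-gated potassium channels of the KCNQ family, which carry the M-current, and of the EAG family, encoded by the KCNH genes, were examined in nuclei of pig dorsal root ganglia. The rule named 8 genes, KCNQ3, KCNQ5, KCNH1, KCNH2, KCNH5, KCNH6, KCNH7 and KCNH8, and all 8 were found among the 30477 rows of the count table. Their levels were followed over 8 groups of nuclei, each led by 1 marker gene, TRPM8, IL31RA, GFRA2, ADCYAP1, KIT, NTRK2, NTRK3 or PVALB. The ganglia, thoracic and lumbar, came from 5 male pigs of the Landrace breed, for which the labels name no treatment or age, so no group of animals was compared with another. Nuclei had been released with the detergent IGEPAL CA-630 or with Triton X-100, and debris was removed on an iodixanol gradient or neuronal nuclei were enriched through NeuN, a protein of neuronal nuclei, with magnetic beads or by sorting.

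KCNQ channels open slowly near the resting potential and do not inactivate, and the steady outward current they carry, the M-current, holds a neuron back from repetitive firing. Receptors that act through Gq and phospholipase C close them by using up the membrane lipid phosphatidylinositol bisphosphate, which the channels need to open. The EAG family has 3 branches: eag (here KCNH1 and KCNH5), erg (KCNH2, KCNH6 and KCNH7) and elk (KCNH8). Erg channels are known for inactivating fast and for passing current mainly as the membrane repolarises. In sensory ganglia the M-current is a known brake on nociceptor firing and a target of channel openers such as retigabine.

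Across 2189 nuclei the table summed to 17277376 unique molecular identifiers (UMIs). Single nuclei held 501 to 338372 UMIs, and the median nucleus held 4565. Barcodes ended in 6 numbers, read as 6 libraries that share no barcode, and nothing tied these to the 5 pigs. The nuclei were therefore 1 pooled sample and no test was run. Every interval is a 95% interval that covers counting error only, and values per library show how far the libraries differed. The barcode endings name no pig, ganglion level or preparation. Library 3 held 805 nuclei and had a median mitochondrial share of 18.5% of UMIs, against 0.0605 to 4.08% in the other libraries. Library 2 held 13 nuclei and gave no value of its own.

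Clusters of nuclei, built without the 8 channel genes, were given to the marker with the highest level relative to the rest of the same library. This placed 1799 nuclei in a group: 113 led by NTRK2, 161 by NTRK3, 215 by PVALB, 216 by KIT, 128 by TRPM8, 218 by IL31RA, 221 by GFRA2 and 527 by ADCYAP1. Each marker was highest in its own group, for example TRPM8 at 1074 CPM (UMIs per 1e6 UMIs of the same nuclei) in the TRPM8 group and at most 229 CPM in the other groups. Further markers were mixed. NEFH, listed for the KIT group, stood at 406 CPM there but at 5894 CPM in the PVALB and 2613 CPM in the NTRK2 group, and SCN10A, also listed for it, at 694 CPM there and 815 CPM in the GFRA2 group. CALB1, MAF, KCNS1 and SLC17A7, listed for the NTRK2 and NTRK3 groups, summed to 181 and 81.1 CPM there but to 220.3 CPM in the PVALB group. ETV1, RUNX3, HEG1 and WNT7A, listed for the PVALB group, summed to 384 CPM there but to 497 CPM in the IL31RA group, and TAC1, GAL, TRPV1 and OPRK1, listed for the ADCYAP1 group, to 3481 CPM there and 3052 CPM in the IL31RA group. The groups are therefore called by their leading marker and not by a cell type. All 5 neuronal markers were present in every group. Markers of satellite glia and Schwann cells summed to 2793 CPM in the PVALB group and to 343 to 726 CPM in the other groups, and their part in the PVALB values below was not tested.

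On the pig assembly Sscrofa11.1, as RefSeq annotates it, KCNQ3 lies on chromosome 4 (8669969 to 8978656), KCNQ5 on chromosome 1 (52435332 to 52939705), KCNH1 on chromosome 9 (131960566 to 132336029) and KCNH2 on chromosome 18 (6242826 to 6279154). KCNH5 lies on chromosome 1 (194965696 to 195264046), KCNH6 on chromosome 12 (15352765 to 15374763), KCNH7 on chromosome 15 (69053456 to 69555144) and KCNH8 on chromosome 13 (6104382 to 6533505). KCNH2 spans 36.3 kb and KCNQ5 504 kb. Long genes can yield more nuclear reads, and the sources used here do not say whether intronic reads were counted, so levels are compared between groups for 1 gene at a time and not between genes. The table held 1995 UMIs of KCNQ3, 10243 of KCNQ5, 3111 of KCNH1, 449 of KCNH2, 666 of KCNH5, 413 of KCNH6, 11514 of KCNH7 and 3088 of KCNH8. KCNH1 was carried in the table under its Ensembl identifier (ENSSSCG00000040650).

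**Figure D1:**
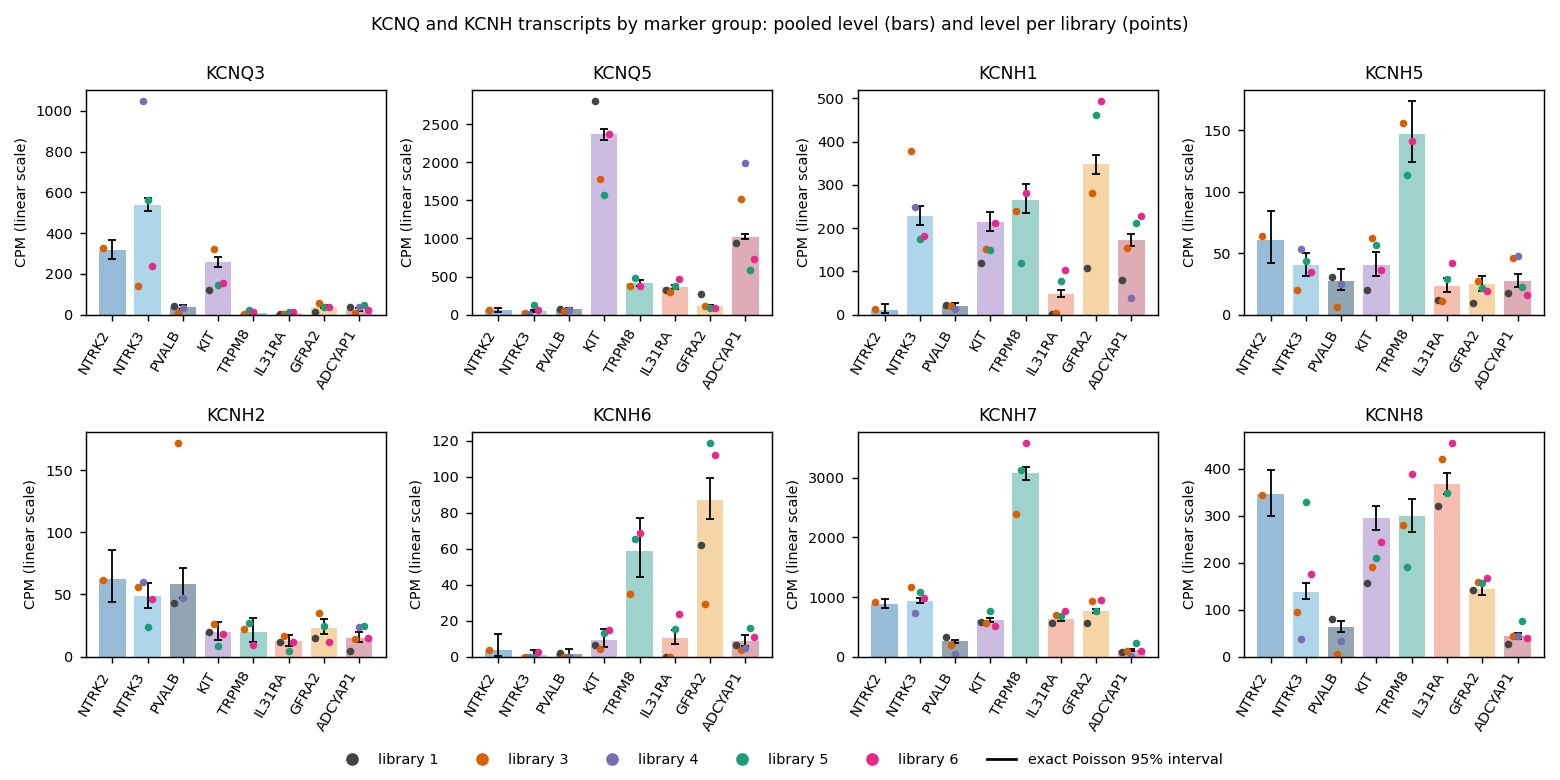
Level of each of the 8 channel genes (CPM, linear scale, axis differing by gene) in the 8 marker groups; bars are pooled levels with exact Poisson 95% intervals and points are libraries with at least 10 nuclei in the group. KCNQ5 stood highest in the KIT group (2363 CPM) and KCNH5 and KCNH7 in the TRPM8 group (147 and 3073 CPM), while library 4 lay far above the other libraries for KCNQ3 in the NTRK3 group.

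KCNQ3, a subunit that joins KCNQ5 and other KCNQ subunits in M-channels, was carried mainly by 3 groups. Its level was 539 CPM in the NTRK3 group (exact Poisson interval 507 to 572), 318 CPM in the NTRK2 group and 259 CPM in the KIT group. The other groups stood lower, with 38.7 CPM in the GFRA2, 37.9 CPM in the PVALB, 25.3 CPM in the ADCYAP1, 10.9 CPM in the TRPM8 and 8.95 CPM in the IL31RA group. The step from the KIT to the GFRA2 group was 6.69-fold (exact conditional interval 5.41 to 8.35) and their libraries did not overlap. Neighbours further down, GFRA2 and PVALB or TRPM8 and IL31RA, did not differ beyond counting error. The highest and lowest groups were 60.2-fold apart (40.5 to 93.4).

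The first place of the NTRK3 group for KCNQ3 leaned on 1 library. In the NTRK3 group KCNQ3 stood at 139, 1049, 562 and 239.6 CPM in libraries 3, 4, 5 and 6. The 16 nuclei of library 4 gave 685 of the 1049 UMIs, and 1 nucleus of 141475 UMIs gave 265 of them. The log2 ratio of the NTRK3 group over the other groups was 3.04, and 2.35 without library 4. The NTRK2 group was then the highest, as it also was in mean CPM over nuclei, with 413 CPM against 345 CPM in the KIT and 282 CPM in the NTRK3 group. A UMI of KCNQ3 was found in 50.4% of NTRK2, 49.1% of KIT and 41.0% of NTRK3 nuclei, against 6.25% of TRPM8 and 7.34% of IL31RA nuclei, at median depths of 4542, 4677, 4630, 4790 and 7946 UMIs. After thinning every nucleus to 1000 UMIs these shares were 30.2%, 22.4%, 17.6%, 1.61% and 0%.

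KCNQ5, the other KCNQ subunit in the list, had a different order. It was highest in the KIT group at 2363 CPM, with 2804, 1781, 1565 and 2364 CPM in libraries 1, 3, 5 and 6. The ADCYAP1 group followed at 1023 CPM, with 937, 1520, 1991, 582 and 728 CPM in libraries 1, 3, 4, 5 and 6. The pooled levels were 2.31-fold apart (2.21 to 2.41), but the library ranges overlapped. The overlap came from library 4 of the ADCYAP1 group, with 12 nuclei, where 1 nucleus of 51638 UMIs gave 256 of 417 UMIs. In each of libraries 1, 3, 5 and 6 the KIT value was the higher. Next came the TRPM8 group (414 CPM, libraries 372 to 479) and the IL31RA group (366 CPM, 303 to 475), whose library ranges overlapped and whose ratio of 1.13 had an interval that began at 1.00. The GFRA2 group had 109 CPM (85.4 to 266), the PVALB group 69.8 CPM, the NTRK2 group 60.5 CPM and the NTRK3 group 49.3 CPM (10.7 to 127), and neighbours among the last 3 did not differ beyond counting error. KIT over NTRK3, the ends of the order, came to 47.9-fold (39.1 to 59.3). KIT was the highest group of KCNQ5 under all 18 alternative settings.

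By group level, the KCNQ genes thus met mainly in the KIT group. The KIT group held both genes at high levels, and the NTRK2 and NTRK3 groups held KCNQ3 with little KCNQ5. The ADCYAP1, TRPM8 and IL31RA groups held KCNQ5 with little KCNQ3. A UMI of both genes was present in 31.5% of KIT nuclei (exact binomial interval 25.3 to 38.1%) and in 5.47 to 14.9% of the nuclei of the other groups. After thinning to 1000 UMIs both were seen in 16 of 205 KIT nuclei (7.80%, 4.53 to 12.4%) and in 0 to 2.08% elsewhere. KCNQ3 was seen in 46 and KCNQ5 in 129 of these thinned KIT nuclei, so most thinned nuclei with KCNQ3 showed no KCNQ5. At full depth this was reversed. KCNQ3 was then seen in 49.1% and both genes in 31.5% of KIT nuclei, so most with KCNQ3 also showed KCNQ5. Whether both genes tend to fall in the same KIT nuclei was not tested. Over the 8 groups the levels of KCNQ3 and KCNQ5 had a Pearson r of -0.263 on the scale of log2 (CPM + 10).

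**Figure D2:**
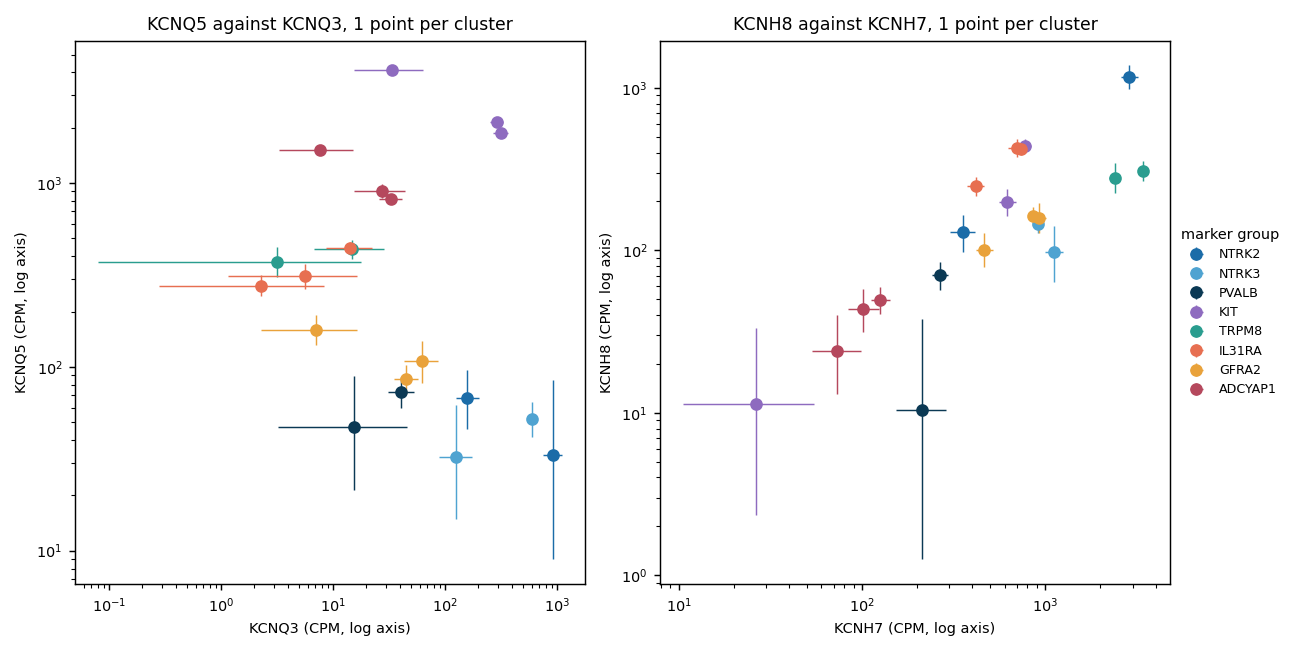
Levels in each cluster led by a marker, 1 point per cluster with the shallow one left out, on log axes in CPM with exact Poisson 95% intervals and coloured by marker group; left, KCNQ5 against KCNQ3, right, KCNH8 against KCNH7. Both larger KIT clusters lie high on both KCNQ axes (KCNQ3 at 316 and 291 CPM, the second at 154 CPM without 3 nuclei of library 4; KCNQ5 at 1875 and 2148 CPM), and a small KIT cluster has 34.0 CPM of KCNQ3 with 4110 CPM of KCNQ5 (16.9 and 2526 CPM without 2 nuclei of library 4).

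KCNH1, an eag channel known mostly from brain and tumours, was spread over 5 groups. The GFRA2 group had 347 CPM, with 107, 282, 460.3 and 494 CPM in libraries 1, 3, 5 and 6. Levels were 266 CPM in the TRPM8, 229 CPM in the NTRK3, 214 CPM in the KIT and 172 CPM in the ADCYAP1 group, and the library ranges of these neighbours overlapped. Library 1 was the lowest library of the GFRA2 and KIT groups, at 107 and 119 CPM. The NTRK2 and PVALB groups had 12.1 and 19.6 CPM, from 7 and 32 UMIs, and did not differ beyond counting error. GFRA2 over NTRK2, the ends of the order, was 28.7-fold (13.9 to 71.5).

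The IL31RA group was divided in KCNH1. Its pooled level was 48.0 CPM, but libraries 1 and 3 had 1.65 and 3.79 CPM, from 1 and 2 UMIs, whereas libraries 5 and 6 had 77.6 and 103 CPM. The groups of libraries did not overlap, and they fell in different clusters. The cluster of libraries 5 and 6 had 94.2 CPM of KCNH1, 173 CPM of TRPM8 and 502 CPM of TAC1, while those of libraries 1 and 3 had 1.15 and 3.74 CPM of KCNH1, 5.76 and 5.61 CPM of TRPM8 and 6300 and 4095 CPM of TAC1. A single nucleus of 338372 UMIs held 48 of the 134 KCNH1 UMIs of the group, and the level was 35.0 CPM without it and 20.4 CPM without library 6. Library and cluster cannot be told apart here.

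KCNH5, the second eag gene, was highest in the TRPM8 group. It stood at 147 CPM there, with 156, 114 and 141 CPM in libraries 3, 5 and 6. These 3 values lay above every library of every other group, of which the highest was 63.9 CPM, in the NTRK2 group. The NTRK2 cluster with the higher NTRK2 level, however, had 122 CPM in library 3, from 13 UMIs (65.2 to 209). That was within the range of the TRPM8 libraries. The TRPM8 level was 2.44-fold above the NTRK2 level of 60.5 CPM (1.67 to 3.64) and 6.23-fold above the IL31RA level of 23.6 CPM (4.61 to 8.50). The groups in between had 40.2 CPM (KIT), 40.1 CPM (NTRK3), 27.5 CPM (PVALB), 27.4 CPM (ADCYAP1) and 24.9 CPM (GFRA2), and none of these neighbours differed beyond counting error. A UMI of KCNH5 was found in 56.2% of TRPM8 nuclei and in at most 23.1% of the nuclei of any other group, with a median depth of 4790 UMIs in the TRPM8 group and 4542 to 8074 UMIs in the others.

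KCNH2, the erg gene whose human counterpart, hERG, repolarises the heart, was low throughout and highest in the large-afferent groups. It stood at 62.2 CPM in the NTRK2, 58.1 CPM in the PVALB and 48.8 CPM in the NTRK3 group, and neighbours among these 3 did not differ beyond counting error. PVALB nuclei ranged from 43.4 CPM in library 1 and 46.8 CPM in library 4 to 172 CPM in library 3. The other 5 groups had 12.5 to 23.4 CPM, with no difference between neighbours beyond counting error. NTRK3 over GFRA2, the step between the sets, was 2.09-fold (1.5 to 2.91), and the libraries of the 2 groups overlapped.

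KCNH6, another erg gene, was found mainly in 2 groups. It stood at 87.3 CPM in the GFRA2 group, with 62.0, 29.5, 119 and 112 CPM in libraries 1, 3, 5 and 6, and at 58.9 CPM in the TRPM8 group, with 35.0, 65.3 and 69.0 CPM in libraries 3, 5 and 6. The library ranges of the GFRA2 and TRPM8 groups overlapped. The GFRA2 group alone gave 63.4% of the KCNH6 UMIs of all led nuclei. The next group, IL31RA, was 5.68-fold below TRPM8 (3.55 to 9.24) at 10.4 CPM, with 0 UMIs in libraries 1 and 3 (intervals up to 6.10 and 6.99 CPM) and 15.5 and 23.6 CPM in libraries 5 and 6. The NTRK2, PVALB and NTRK3 groups had 2 UMIs each, or 3.46, 1.22 and 1.03 CPM, and the order among them is within counting error.

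KCNH7, the erg gene most tied to the nervous system, was highest in the TRPM8 group. It stood there at 3073 CPM (2961 to 3189), with 2393, 3134 and 3589 CPM in libraries 3, 5 and 6. No library of another group reached these values: the highest was 1167 CPM, in the NTRK3 group. A part of the NTRK2 group did, however: its cluster with the higher NTRK2 level had 3128 CPM in library 3 (2801 to 3483). That was above the 2393 CPM of the TRPM8 group in the same library. The NTRK3 group had 938 CPM, the NTRK2 group 883 CPM, the GFRA2 group 770.4 CPM, the IL31RA group 631 CPM and the KIT group 610.2 CPM, a run of neighbours with overlapping libraries. The PVALB group had 261 CPM (40.5 to 330.4 over libraries) and the ADCYAP1 group 112 CPM (14.3 to 234). TRPM8 over ADCYAP1 came to 27.6-fold (24.9 to 30.6). A KCNH7 UMI was present in 85.9% of TRPM8 nuclei and 35.1% of ADCYAP1 nuclei, and in 69.4% and 9.63% after thinning.

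KCNH8, an elk channel gene, was shared by 4 groups at similar levels. It stood at 368 CPM in the IL31RA group, with 321, 421, 348 and 456 CPM in libraries 1, 3, 5 and 6. The NTRK2 group had 346 CPM, the TRPM8 group 299 CPM (190.4 to 389) and the KIT group 295 CPM, and none of these neighbours differed beyond counting error. In the KIT group 1 nucleus of 107208 UMIs held 192 of the 507 UMIs, the level without it was 196 CPM, and the libraries lay between 158 and 245 CPM. The GFRA2 and NTRK3 groups had 145 and 138 CPM, the PVALB group 63.0 CPM and the ADCYAP1 group 43.9 CPM. IL31RA over ADCYAP1 was 8.40-fold (7.13 to 9.94).

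A count of the genes past 2-fold was made for each group over the other led groups, among genes with at least 50 UMIs. The 8 members gave 14 higher and 24 lower pairs of gene and group. In the TRPM8 group 3 members were higher, KCNH7 (5.77-fold), KCNH5 (4.82-fold) and KCNH6 (2.78-fold), and KCNQ3 was lower (11.8-fold), where 3.21% of 13128 genes were higher and 19.4% lower. In the KIT group KCNQ5 (5.82-fold) and KCNQ3 (2.44-fold) were higher and KCNH6 lower (2.68-fold), against 5.28% and 7.91% of genes. In the GFRA2 group KCNH6 (8.49-fold) and KCNH1 (2.47-fold) were higher and KCNQ5 (6.58-fold) and KCNQ3 (3.60-fold) lower, against 3.29% and 8.42% of genes. With no UMI minimum applied, all of these ratios kept their side of 2-fold under every alternative, except those of KCNQ3 when nuclei were grouped by their own marker UMIs. Its log2 ratio was then -0.14 in the KIT, 0.14 in the TRPM8 and -0.45 in the GFRA2 group. After thinning the KCNH6 ratios rested on few nuclei with a UMI, 14 in the GFRA2, 7 in the TRPM8 and 1 in the KIT group. The median log2 ratio of the 8 members was 0.71 in the TRPM8, 0.22 in the KIT and -0.31 in the GFRA2 group, beside -0.29, -0.02 and -0.07 for all genes. Without library 4 the log2 ratio of KCNQ3 in the TRPM8 group was -2.76, and without library 6 it was -4.17, beside -3.57 in all libraries.

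The remaining C-fibre marker groups had more members lower than higher. In the IL31RA group KCNH8 was higher (2.56-fold, 2.38 to 2.77) and KCNQ3 (16.3-fold), KCNH1 (4.22-fold), KCNH6 (2.51-fold) and KCNH2 (2.39-fold) lower, against 2.58% of genes higher and 10.2% lower. The KCNH8 call was lost at clustering resolution 0.5 (log2 ratio 0.35). Those of KCNH1 (-0.85) and KCNH6 (-0.45) were lost there too, and KCNH6 had no UMI in the IL31RA group after thinning, while KCNH2 came just within 2-fold at that resolution. Without library 6 KCNH1 and KCNH6 were lower still, at -3.09 and -2.58 beside -2.08 and -1.33 in all libraries, and KCNQ3 moved from -4.03 to -3.34 without library 4 and -4.72 without library 6. In the ADCYAP1 group KCNQ5 was higher (2.10-fold, and a log2 ratio of 0.73 without library 3, beside 1.07), against 2.42% of genes higher. KCNH7 (7.64-fold), KCNQ3 (6.03-fold, and a log2 ratio of -1.90 without library 4, beside -2.59), KCNH8 (5.14-fold), KCNH6 (3.24-fold) and KCNH2 (2.02-fold) were lower there, against 8.62% of genes. KCNH6 was within 2-fold when nuclei were grouped by their own marker UMIs (-0.59). The KCNH2 value was close to the threshold and came within 2-fold in 7 of 18 alternatives, among them those without library 1 (-0.87), library 3 (-0.80) and library 4 (-0.95).

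The PVALB group had 1 member higher, KCNH2 (2.48-fold, 1.96 to 3.12), and 6 lower, where 18.2% of genes were higher and 26.9% lower. The members' median log2 ratio was -1.72 there, beside -0.22 for all genes, and -1.06 and -1.35 in the IL31RA and ADCYAP1 groups, beside -0.13 and -0.10. KCNH6 was 21.1-fold lower from 2 UMIs (5.80 to 175), KCNH1 9.86-fold, KCNQ5 9.68-fold, KCNQ3 3.48-fold, KCNH8 3.11-fold and KCNH7 2.77-fold. Library 1 moved several of these values: without it the log2 ratio was -2.84 for KCNH7, beside -1.47 with it, -2.95 for KCNH8, beside -1.64, -2.51 for KCNQ3, beside -1.80, and -3.93 for KCNH1, beside -3.30. Both KCNH6 UMIs of the PVALB group came from library 1, and neither was left after thinning. The calls of KCNQ3 (-0.07), KCNH8 (-0.43) and KCNH7 (-0.78) were lost at clustering resolution 0.5. KCNQ3 reached -0.99 without library 4.

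In the NTRK3 group KCNQ3 (8.24-fold) and KCNH2 (2.04-fold, and log2 ratios of 0.90 and 0.86 without library 4 and library 6) were higher and KCNH6 (25.7-fold, 7.07 to 213) and KCNQ5 (14.0-fold) lower, against 13.5% and 19.6% of genes. Without library 4 the log2 ratio of KCNQ3 was 2.35, beside 3.04, and that of KCNQ5 -3.19, beside -3.81. Both KCNH6 UMIs of the NTRK3 group came from library 6, so that 0 were left without it or after thinning. The KCNH2 call was also lost when nuclei were grouped by their own marker UMIs (0.64), in the mean of within-library ratios (0.89) and without mitochondrial UMIs (0.91). In the NTRK2 group KCNQ3 (2.76-fold) and KCNH2 (2.43-fold) were higher and KCNH1 (log2 ratio -3.91), KCNQ5 (10.5-fold) and KCNH6 (6.97-fold) lower, against 8.43% and 24.2% of genes. Library 3 held 95 of these 113 nuclei and all 7 KCNH1 and both KCNH6 UMIs of the NTRK2 group. Without library 3 the log2 ratio of KCNQ3 was 0.76, beside 1.46, and the levels of KCNH7 and KCNH5 were 454 and 21.6 CPM, beside 883 and 60.5 CPM. Without library 4 the log2 ratio of KCNQ3 was 2.29. The KCNH2 call was lost when nuclei were grouped by their own marker UMIs (0.40), in mean CPM over nuclei (0.56) and after thinning (0.99). That of KCNH1 was lost when nuclei were grouped by their own marker UMIs (-0.89), and that of KCNH6 after thinning (-0.62), where it rested on 1 nucleus.

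**Figure D3:**
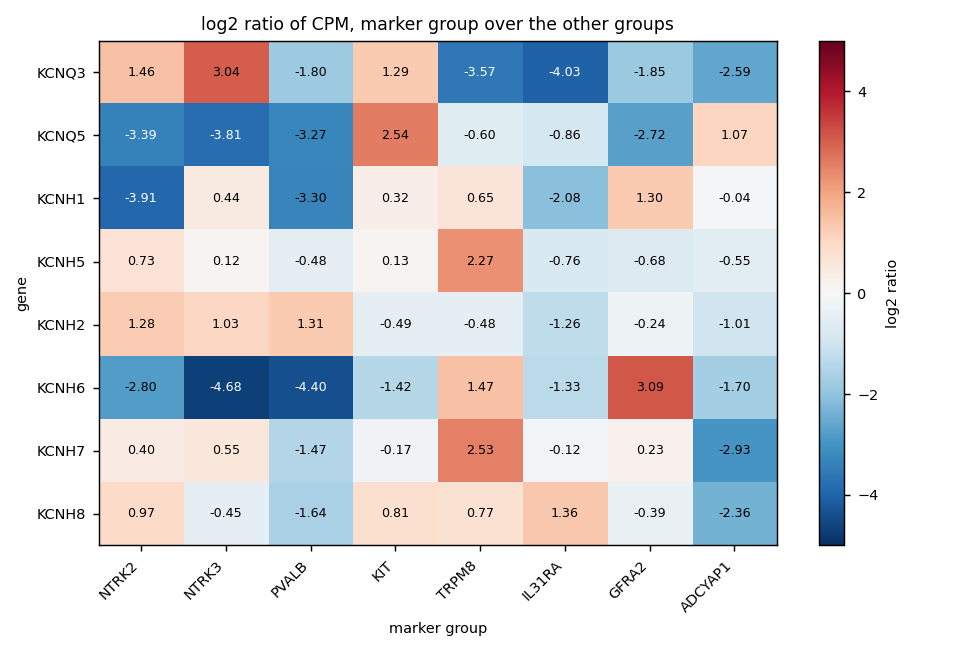
Log2 ratio of CPM for each channel gene (rows) in each marker group over the other led groups (columns), with red for higher and blue for lower. KCNH7 and KCNH5 are highest in the TRPM8 column (2.53 and 2.27), KCNQ5 in the KIT column (2.54) and KCNH6 in the GFRA2 column (3.09).

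The groups led by NTRK2, NTRK3 and PVALB, markers known from large myelinated afferents, were then joined (489 nuclei) and set against those led by TRPM8, IL31RA, GFRA2 and ADCYAP1, markers known from C-fibre neurons (1094 nuclei). The names of the sides rest on these leading markers alone and were not borne out by every further marker. NEFH stood at 5683 and 7478 CPM in the PVALB clusters but at 412 and 542 CPM in the NTRK3 clusters. The GFRA2 clusters had 574 to 1715 CPM of NEFH. KCNQ3 and KCNH2 were higher in the large-afferent groups, KCNQ5 and KCNH6 were lower, and the other 4 members were within 2-fold. Among 12754 genes 11.0% were higher and 6.34% lower past 2-fold. The members' median log2 ratio was -0.23, beside 0.10 for all genes.

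KCNQ3 stood at 311 CPM in the large-afferent and 23.2 CPM in the C-fibre groups, 13.4-fold higher (11.7 to 15.5). By library it had 43.7, 225, 699, 549 and 235 CPM in large-afferent nuclei of libraries 1, 3, 4, 5 and 6, against 18.7, 17.3, 74.2, 33.3 and 23.3 CPM in C-fibre nuclei. The large-afferent value was the higher in each library, although the ranges overlapped across libraries, and the difference was least in library 1, where most large-afferent nuclei were led by PVALB. The PVALB group, at 37.9 CPM, was the exception among the large-afferent groups and stood level with the GFRA2 group at 38.7 CPM. PVALB nuclei had 43.4, 6.63 and 31.2 CPM in libraries 1, 3 and 4, above the C-fibre value in library 1 only. The log2 ratio of the joined sides for KCNQ3 was 3.75 in all libraries and 3.11 without library 4. KCNH2 stood at 54.3 CPM in the large-afferent and 17.0 CPM in the C-fibre groups, 3.19-fold higher (2.61 to 3.91), with 42.9, 78.1, 56.6, 34.8 and 47.3 CPM against 9.67, 20.6, 30.3, 20.1 and 12.8 CPM. The 2 sides did not overlap over these 5 libraries in KCNH2.

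KCNQ5 stood at 58.9 CPM in the large-afferent and 547 CPM in the C-fibre groups, 9.28-fold lower (8.17 to 10.6). By library it had 76.1, 48.1, 27.8, 124 and 66.0 CPM in large-afferent nuclei of libraries 1, 3, 4, 5 and 6, against 545, 789.9, 1507, 343 and 481 CPM in C-fibre nuclei, without overlap. The GFRA2 group, at 109 CPM, was the exception among the C-fibre groups. KCNH6 was 24.0-fold lower (10.9 to 65.7), at 1.44 CPM from 6 UMIs in the large-afferent and 34.6 CPM from 355 UMIs in the C-fibre groups. After thinning KCNQ5 alone was counted as lower, since KCNH6 then had fewer than 50 UMIs.

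For the remaining members the pooled sides hid large differences between groups. KCNH7 had 664 CPM in the large-afferent and 692 CPM in the C-fibre groups, a log2 ratio of -0.06, although the C-fibre groups spanned 112 CPM (ADCYAP1) to 3073 CPM (TRPM8). KCNH5 had 38.0 CPM in the large-afferent and 36.4 CPM in the C-fibre groups (log2 ratio 0.06, libraries -0.87 to 0.84). KCNH8 had 138 CPM and 182 CPM (log2 ratio -0.40, libraries -1.34 to 0.84), and KCNH1 116 CPM and 193 CPM (-0.73, libraries -1.34 to -0.25).

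**Figure D4:**
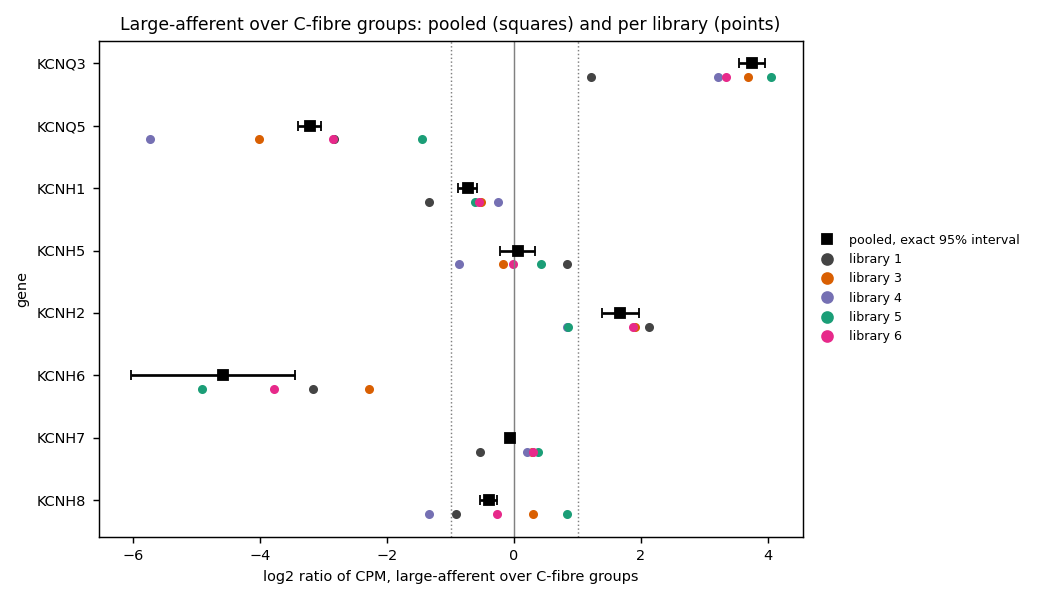
Log2 ratio of CPM, large-afferent over C-fibre groups, for the 8 channel genes; squares are pooled ratios with exact 95% intervals, points are libraries and dotted lines mark 2-fold. KCNQ3 and KCNH2 lie to the right in all 5 libraries and KCNQ5 to the left, and KCNH6 lies to the left in the 4 libraries that gave a value.

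Clusters within a group differed in these channels. The NTRK2 group was made of 2 clusters, both mainly from library 3. Within library 3, the cluster with the higher NTRK2 level (3468 CPM of NTRK2 over all its nuclei) had 999 CPM of KCNQ3, 3128 CPM of KCNH7, 1168 CPM of KCNH8 and 122 CPM of KCNH5, and no UMI of KCNH2 (interval up to 34.8 CPM). The other cluster (605 CPM of NTRK2 and 3227 CPM of NEFH) had 159.6 CPM of KCNQ3, 371 CPM of KCNH7, 138 CPM of KCNH8, 49.3 CPM of KCNH5 and 77.4 CPM of KCNH2. The median depth in library 3 was 2716 UMIs in the first of these clusters and 6713 UMIs in the second. The group level of KCNH7 in the NTRK2 group, 883 CPM, was met by neither.

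The KIT group had a small cluster of 34 nuclei in which KIT and NTRK2 led by the same score (log2 2.27 each). Its KCNQ5 level was 3222 CPM in library 3 and 1836 CPM in library 6, within or above the range of the other KIT clusters, while 2 nuclei of library 4 gave 789 of its 1088 KCNQ5 UMIs. KCNQ3, by contrast, had 0 UMIs in library 3 (interval up to 62.5 CPM) and 33.7 CPM in library 6, against 119 to 370.5 CPM in the libraries of the other KIT clusters. KCNH7 stood at 50.9 and 50.5 CPM in libraries 3 and 6 of the small cluster, against 572 to 771 CPM in the others. In the PVALB group, the nuclei of library 3 had more KCNH2 (172 CPM) and less KCNQ3 (6.63 CPM) than those of library 1 (43.4 CPM of each gene). Because most clusters came from 1 library, a difference between clusters of different libraries cannot be told apart from a difference between libraries.

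Pairs of KCNH genes were found together in several groups, and whether this went beyond each gene's own share of nuclei was not tested. KCNH5 was found in 56.2% and KCNH7 in 85.9% of TRPM8 nuclei, and KCNH7 in 89.9% and KCNH8 in 81.7% of IL31RA nuclei. KCNH5 and KCNH7 both had a UMI in 52.3% of TRPM8 nuclei (43.3 to 61.2%), against 6.07 to 20.5% in the other groups, and after thinning in 12.9% against 0.393 to 2.93%. KCNH7 and KCNH8 both had a UMI in 75.7% of IL31RA nuclei (69.4 to 81.2%) and in 10.4% of ADCYAP1 nuclei, but the IL31RA nuclei were deeper (median 7946 against 4773 UMIs). After thinning these shares were 16.7% and 0.393%, and the NTRK2 group had the highest, at 19.8% (12.4 to 29.2%). Over the 8 groups KCNH7 and KCNH8 had a Pearson r of 0.753 on the scale of log2 (CPM + 10), and 0.72 over 28 group-by-library values. KCNH5 and KCNH7 had 0.749 over the groups and 0.43 over the group-by-library values. KCNQ5 and KCNH2 ran opposite (-0.782 and -0.62). These correlations describe 8 groups that share libraries and depths.

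Genes outside the list whose levels over the 8 groups were most like a member's were named by the highest Pearson r, among 9365 genes with at least 200 UMIs. For KCNQ3 these were GPR158 (0.962), CPNE4 (0.952) and SUSD6 (0.947), and over the 28 group-by-library values GPR158 kept 0.85 and CPNE4 0.90 while SUSD6 had 0.41. For KCNQ5 they were FER (0.969), METTL14 (0.963) and CDA (0.953), with 0.80, 0.66 and 0.84 over the group-by-library values. For KCNH1 they were SULF2 (0.992), AATF (0.988) and TNRC6B (0.983), and for KCNH2 WLS (0.986), CPLX1 (0.984) and ACADL (0.978). Over the group-by-library values these had 0.88, 0.50 and 0.70 for KCNH1 and 0.57, 0.75 and 0.71 for KCNH2. KCNH5 was nearest to GULP1 (0.945), CHST12 (0.933) and MLLT3 (0.930), and KCNH6 to PYM1 (0.957), SYNPR (0.944) and VPS37C (0.917). The group-by-library values gave 0.44, 0.52 and 0.56 for KCNH5 and 0.63, 0.85 and 0.35 for KCNH6. KCNH7 was nearest to TTC29 (0.891), DAB1 (0.880) and LRRTM4 (0.871), with 0.71, 0.73 and 0.76 over the group-by-library values. KCNH8 was nearest to TBKBP1 (0.948), ENSSSCG00000025565 (0.912) and NGLY1 (0.894), which had 0.34, 0.29 and 0.40 over the group-by-library values. With 9365 genes and 8 points, high values of r are found for many genes.

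A list of 36 genes around these channels held other KCNQ and EAG subunits, KCNE accessory subunits and the Gq, phosphoinositide and scaffold proteins that act on the M-current. Of these, 33 had a row and 20 reached 50 UMIs over the large-afferent and C-fibre groups. In the large-afferent groups 2 of the 20 were higher, 5 lower and 13 within 2-fold, where 11.0% of 12754 genes were higher and 6.34% lower. The share of the 20 that was higher was thus no more than that of all genes. The median log2 ratio of the 20 was -0.00 beside 0.10 for all genes. The KCNE genes, KCNH3 and KCNH4 did not reach 50 UMIs. The genes higher in the large-afferent groups were PLCB1, a Gq-coupled phospholipase C, at 574 CPM in the large-afferent and 121 CPM in the C-fibre groups (4.75-fold, 4.43 to 5.09), and AKAP5, an anchor protein that binds KCNQ channels, at 19.7 and 9.25 CPM (2.13-fold, 1.57 to 2.90). PLCB1 was highest in the NTRK3 group, at 929 CPM against 244 CPM in the NTRK2 and 267 CPM in the PVALB group. AKAP5 came within 2-fold without library 3 (log2 ratio 0.89) and without library 5 (0.98), and 4 listed genes were higher without library 1.

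Of the listed receptors that couple to Gq, HRH1 and BDKRB2 reached 50 UMIs and both were lower. F2RL1 had 22 UMIs in the large-afferent and 14 UMIs in the C-fibre groups (5.29 and 1.36 CPM), and CHRM3, CHRM5 and BDKRB1 had 0 to 2 UMIs a side. HRH1, the histamine receptor of classical allergy, stood at 23.6 CPM in the large-afferent and 117 CPM in the C-fibre groups, 4.98-fold lower (4.05 to 6.18), with 222 CPM in the IL31RA group. BDKRB2, the bradykinin receptor of healthy tissue, stood at 7.45 CPM in the large-afferent and 24.3 CPM in the C-fibre groups, 3.27-fold lower (2.24 to 4.91). Its transcripts were concentrated in the ADCYAP1 group, at 55.4 CPM against 2.18 to 8.95 CPM in the other C-fibre groups. PLCB3, a further phospholipase C, was 4.85-fold lower (3.73 to 6.40), at 14.7 CPM in the large-afferent and 71.1 CPM in the C-fibre groups, and ANK3, the ankyrin that anchors KCNQ channels at the axon initial segment, 2.40-fold lower (2.33 to 2.47; 1286 and 3088 CPM). The fifth lower gene, outside the rule for named genes and named after its value was seen, was GNAQ, which encodes the Gq alpha subunit, at 239 CPM in the large-afferent and 554 CPM in the C-fibre groups. When nuclei were grouped by their own marker UMIs, ANK3 (log2 ratio -0.80), GNAQ (-0.93) and AKAP5 (0.80) were within 2-fold.

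A cluster of 289 nuclei led by TRPM8 was set apart because its median depth, 1435 UMIs, was far under the median of the table, and 286 of its nuclei came from library 1. Against the TRPM8 group, KCNH7 stood at 765 CPM in the shallow cluster and 3073 CPM in the group, 4.02-fold lower (3.61 to 4.48). KCNH1 was lower too (47.6 against 266 CPM), as were KCNH5 (29.7 against 147 CPM) and KCNH8 (125 against 299 CPM). KCNQ5 (487 against 414 CPM) and KCNH6 (37.7 against 58.9 CPM) were within 2-fold, and KCNQ3 and KCNH2 had under 50 UMIs in the comparison. Thus 4 of 6 members were lower and 0 higher, where 12.6% of 5282 genes were lower and 24.6% higher past 2-fold. Markers of satellite glia and Schwann cells summed to 3813 CPM in the shallow cluster and 371 CPM in the TRPM8 group, and their part in these differences was not tested. The 101 nuclei with no leading marker had 403 CPM of KCNH1, above the pooled level of every marker group, with 202, 394, 418 and 268 CPM in libraries 1, 3, 5 and 6. Without 2 nuclei of library 4, which gave 122 of the 251 UMIs, the level was 240.4 CPM and no longer above the GFRA2 and TRPM8 groups.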

How the data were processed

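The file the authors deposited is 1 table of raw UMI counts per gene and nucleus, and per the submitters' processing notes Cell Ranger 6.0.1, Seurat and the build Sscrofa11.1 were used. Libraries were 10x Next GEM 3' libraries, per the labels' protocols. Ensembl rows were named from RefSeq (773 of 14012 matched). The 13 mitochondrial rows stayed in the totals.

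Nuclei were clustered with scanpy 1.11.5 (Leiden, resolution 1.0, 30 components, 15 neighbours) on 1994 variable genes. The 8 channels and the channel list were left out, but the grouping markers were not, so marker levels describe the groups and test nothing. A cluster needed a score of log2 1.0, a threshold set after the clusters were seen, as was setting the shallow cluster apart. Scrublet called 1 of 2189 nuclei a doublet, too few to show that it worked, and none was removed.

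UMIs were summed per group and given as CPM. Ratios were called past 2-fold with at least 50 UMIs over both sides. Single libraries needed 10 nuclei a side. The ratio step was tested on simulated counts that held counting error only, so the test does not cover spread between nuclei or libraries. Named genes were all members, the 4 largest changes past 2-fold of the channel list in each direction and the 3 genes most like each member. The members and lists were chosen with earlier results of these data known. A planned test over pigs was not made, since barcodes could not be tied to pigs. Python 3.11.15, numpy 2.4.6, scipy 1.17.1 and pandas 2.3.3 were used. Some genes of the lists are not reported here.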

Additional observations from a re-analysis of the deposited data

How the results depend on the processing

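No paired analysis was possible because the nuclei are 1 pooled sample and no test was run. Over 18 alternatives (other clustering resolutions, grouping by single nuclei, depth, UMI minimum, mitochondrial share, leaving out each library, and counting the shallow cluster with TRPM8, which was chosen after seeing the data), 8 of the 14 higher and 10 of the 24 lower pairs of member and group stayed past 2-fold in every alternative run, with a group at 0 UMIs set to 3 counts. For the NTRK2 group 17 were run, since no cluster was led by NTRK2 at resolution 0.5. The number of members lower in the large-afferent groups was 1 after thinning, beside 2. The members with the same highest group numbered 5 in mean CPM over nuclei and 4 after thinning, out of 8. KCNQ5 (KIT), KCNH5 and KCNH7 (TRPM8) kept theirs in all alternatives. Listed genes higher in the large-afferent groups, 2 in all libraries, numbered 1 when nuclei were grouped by their own marker UMIs, 6 at a minimum of 10 UMIs, 10 with no minimum, and 1 to 4 when 1 library was left out. Listed genes lower, otherwise 5, numbered 3 when nuclei were grouped by their own marker UMIs. The share of all genes past 2-fold was not counted under these alternatives. The causes were not tested. KCNH2, KCNH5 and KCNH6 had the fewest UMIs of the members, with 449, 666 and 413 in the table.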
